A study of Mus musculus with 12 samples.

Results

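The melanocyte pigment genes are 8 genes chosen by name from what is known of pigment cells: Tyr, Tyrp1, Dct, Mlana, Slc45a2, Oca2, Mitf and Mc1r. The choice was made with earlier results of these data known. All 8 were found among the 22609 gene symbols counted in each library. RNA was sequenced from the hind paw and from whole dorsal root ganglia (DRG), the clusters of sensory neuron cell bodies beside the spinal cord, of C57BL/6J mice, a black strain. There were 4 groups of 3 libraries, male hind paw, female hind paw, male DRG and female DRG, and each number below comes from read counts of those 12 libraries. The labels give mice of 8 to 14 weeks and 20 µl of saline injected into the paw, for every group alike, whereas the methods describe naive mice of a narrower age range and females in estrus. The hind paw sample was a punch biopsy through epidermis and dermis with part of the fat below, and the DRG sample was lumbar ganglia. The series names 3 males and 3 females as the source but ties no library to an animal, so p-values measure the spread between these libraries.

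Melanocytes are pigment cells derived from the neural crest. They make melanin inside melanosomes and pass these to keratinocytes of the skin and hair. Tyr encodes tyrosinase, the rate-limiting enzyme of melanin synthesis, and Tyrp1 and Dct encode related enzymes that act on later intermediates of brown-black eumelanin. Mlana, Slc45a2 and Oca2 encode melanosome proteins, of which the latter pair are membrane transporters that set the conditions for tyrosinase. Mc1r is the receptor for melanocyte stimulating hormone, and Mitf is the transcription factor that switches on most of the others and is also made in several other cell types.

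Each library held 6866545 to 13470783 reads on genes (median 10817522). Male hind paw library 2 stood apart, with 13.6% of its listed reads on genes against 23.8% to 28.1% in the other 11 libraries, and with 55.5% of its reads aligned to more than 1 place. The fold changes of the tested pigment genes, the hind paw levels of the 5 highest and the tests of Tyr and Mlana are given without it as well. Defining markers of the tissues followed the labels. The 9 keratinocyte genes summed to between 14944 and 24431 RPKM (reads per kilobase of exon, scaled by library depth) in hind paw and between 10.1 and 33.3 in DRG, and the 11 sensory neuron genes to between 9.52 and 20.5 RPKM in hind paw and between 1830 and 2569 in DRG. Xist lay between 93.9 and 198 RPKM in the 6 female libraries and between 0.0521 and 0.367 in the 6 male libraries.

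Transcripts of the pigment genes were scarce in hind paw except for Mitf. Per length, the order there was Mitf at 4.04 ± 0.635 RPKM (SD, n = 6), Dct at 1.19 ± 0.320, Tyrp1 at 0.723 ± 0.209, Mlana at 0.183 ± 0.212 and Tyr at 0.0674 ± 0.0427. Slc45a2, Mc1r and Oca2 followed with means of 0.0382, 0.0297 and 0.0273 RPKM. The ranges of Dct and Tyrp1 overlapped, as did those of Tyrp1 and Mlana and those of Mlana, Tyr and the last 3, and only Mitf lay above every other gene of the 8 in each hind paw library. In DRG the order changed. Mitf at 3.59 ± 0.379 RPKM and Tyrp1 at 3.24 ± 0.810 were the highest with overlapping ranges, Dct followed at 0.176 ± 0.0935, and the means of Mc1r, Oca2 and Slc45a2 were 0.0271, 0.0192 and 0.0159. Tyr and Mlana had no read in any DRG library. Without male hind paw library 2 the hind paw means were 3.90 RPKM for Mitf, 1.28 for Dct, 0.754 for Tyrp1, 0.220 for Mlana and 0.0809 for Tyr (n = 5), and the order of these 5 was unchanged. In whole tissue, fewer cells of a type and less RNA per cell cannot be told apart.

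**Figure D1:**
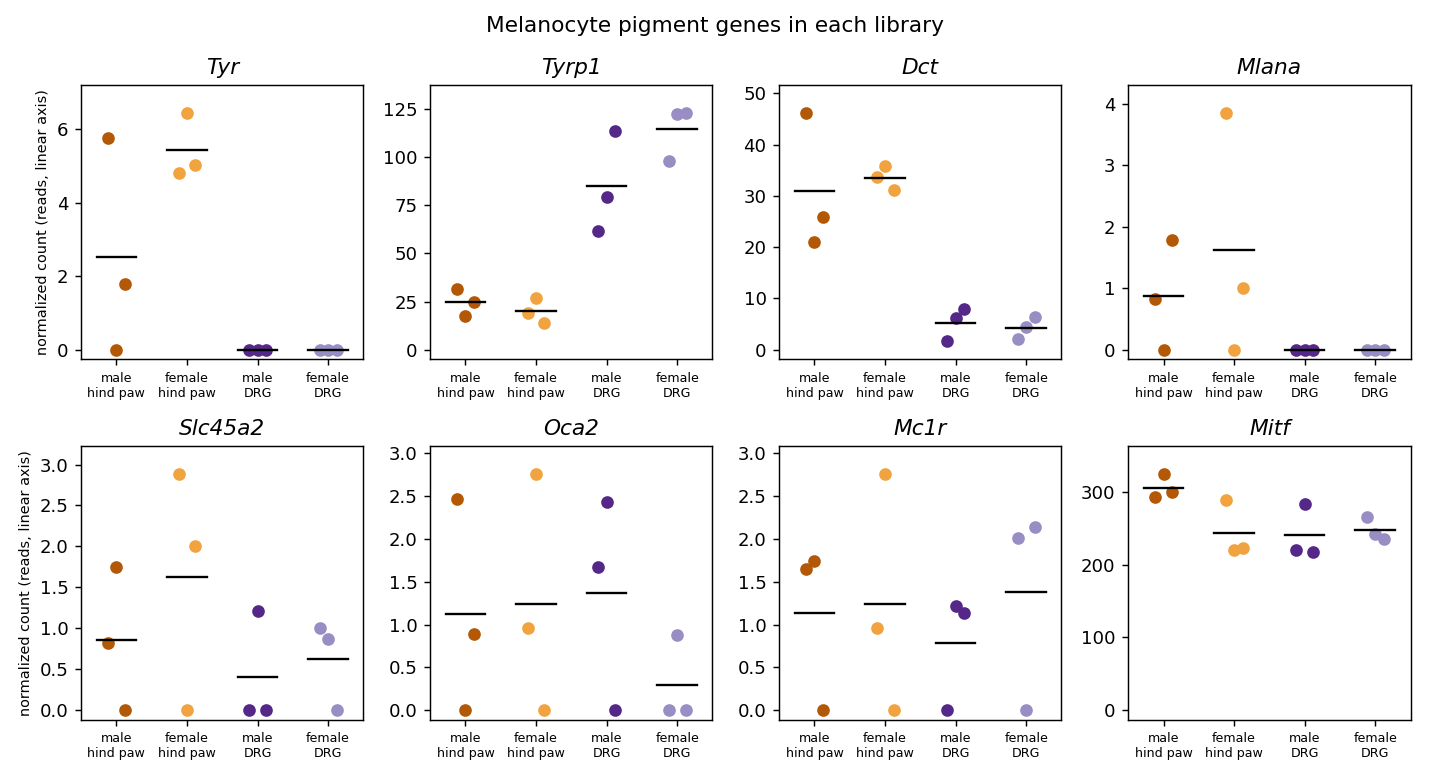
Normalized count (reads scaled to a common library size, linear axis) of each of the 8 genes in each library; points are libraries and bars are the mean of the 3 libraries of a group. Tyr and Mlana are at 0 in all 6 DRG libraries, Dct is higher in hind paw, Tyrp1 is higher in DRG, and Mitf is at a like level in both tissues.

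The promoters of the 3 enzymes are shown here because the difference between tissues turns on these related genes. The sequences are RefSeq promoters of 300 bases around the start site, from the GRCm38.p6 table, and each was found once, base for base, in the mm9 genome (NCBIM37), whose positions are given. Tyr lies on the minus strand with its promoter at chr7:94641973-94642272, Tyrp1 on the plus strand at chr4:80479867-80480166, and Dct on the minus strand at chr14:118451419-118451718. Capitals mark the letters CATGTG, the core of the M-box bound by MITF, on either strand (CACATG is its reverse).
Tyr: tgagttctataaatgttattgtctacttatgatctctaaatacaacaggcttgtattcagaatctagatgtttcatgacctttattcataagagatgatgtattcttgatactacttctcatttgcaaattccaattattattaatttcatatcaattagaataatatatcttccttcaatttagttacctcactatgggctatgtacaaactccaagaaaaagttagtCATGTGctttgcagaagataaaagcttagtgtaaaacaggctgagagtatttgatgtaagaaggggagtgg
Tyrp1: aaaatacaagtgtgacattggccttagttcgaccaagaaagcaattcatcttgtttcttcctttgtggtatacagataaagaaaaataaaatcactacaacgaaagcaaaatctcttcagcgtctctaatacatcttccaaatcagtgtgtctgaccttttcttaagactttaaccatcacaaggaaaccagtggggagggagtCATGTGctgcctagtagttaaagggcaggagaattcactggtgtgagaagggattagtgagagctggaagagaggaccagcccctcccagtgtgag
Dct: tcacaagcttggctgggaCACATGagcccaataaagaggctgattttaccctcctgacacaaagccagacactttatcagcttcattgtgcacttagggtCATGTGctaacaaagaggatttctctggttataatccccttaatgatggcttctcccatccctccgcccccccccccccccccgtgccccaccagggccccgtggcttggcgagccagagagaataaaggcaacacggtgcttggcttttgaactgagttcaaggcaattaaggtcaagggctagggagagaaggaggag

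Counted from the start site of the RefSeq table, CATGTG stood once in the Tyr promoter, 21 bases before the start, once in the Tyrp1 promoter, 46 bases before it, and at 2 places in the Dct promoter, 150 and 232 bases before it. The GENCODE gene models start elsewhere for Tyr, where the match lies 100 bases before the start, and for Tyrp1, where it lies 44 bases after it, and at the same base for Dct. Over the 8 promoters that RefSeq lists for 6 of the genes, 5 held CATGTG, also those of Oca2 and Mc1r, and the 3 promoters of Mitf did not. Of all 32851 promoters of the same length, 14.2% held it. The letters CACGTG, the other E-box that MITF binds, were in none of the 8 and in 7.15% of all promoters. Mlana and Slc45a2 are not listed in the table. A match is a description of letters and was not tested as a binding site.

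The comparison of hind paw with DRG asked which of the genes are skin transcripts and which are also present in the ganglia. A gene was tested if at least 3 of the 12 libraries had at least 10 reads, and 3 of the 8 genes passed: Tyrp1, Dct and Mitf. A gene was called at an adjusted p below 0.05. Of the 3, 1 was higher in hind paw (Dct), where 42.6% of all 15666 tested genes were called higher in hind paw, and 1 was higher in DRG (Tyrp1), where 43.1% of all genes were. Dct reached the filter through hind paw only, since no DRG library had 10 reads of it. Entry through the tissue where a gene is high favors a call. The counts are therefore no result about the pigment genes as a group, and they are also near the background. The pair of related enzymes differed between tissues in opposite directions.

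Dct, dopachrome tautomerase, had 56, 12 and 29 reads in the male hind paw libraries and 35, 39 and 31 in the female ones. In DRG it had 2, 5 and 7 reads in males and 2, 5 and 6 in females. Every hind paw library was above every DRG library after scaling, with 20.9 to 46.1 normalized counts against 1.67 to 7.97. Dct was 7.01-fold higher in hind paw (log2 fold change 2.81 ± 0.33 (SE), adjusted p = 3.47e-06, edgeR quasi-likelihood test with Benjamini-Hochberg adjustment). Dct was also called in the fit without a filter on low counts, which does not select it by its hind paw reads. Without male hind paw library 2 the log2 fold change was 2.91.

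Tyrp1, which is dihydroxyindole carboxylic acid oxidase in the mouse, had 38, 10 and 28 reads in male hind paw and 20, 29 and 14 in female hind paw. In DRG it had 74, 65 and 100 reads in males and 98, 140 and 115 in females. Every DRG library, at 61.9 to 123 normalized counts, was above every hind paw library, at 14.1 to 31.3. Tyrp1 was 4.32-fold lower in hind paw (log2 fold change -2.11 ± 0.20 (SE), adjusted p = 3.71e-07, edgeR quasi-likelihood test). Without male hind paw library 2 the log2 fold change was -2.03.

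The exact permutation test over the libraries (2-sided, mean log2 of normalized count plus 1, 8 genes, unadjusted) gave p = 0.00216 for both Dct and Tyrp1, the smallest it can give for 6 libraries against 6. Here and below this test took the libraries of both tissues as exchangeable. It left sex, and any mouse that gave both tissues, out of account, so its p can be too small. Of the 8 genes, 1 had every hind paw library above every DRG library and 1 the reverse, and over the 19231 genes with a read the shares were 29.2% and 31.6%.

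The balance of Dct and Tyrp1 is given as a description, since it had to separate the tissues once each gene did. The ratio of Dct to Tyrp1 RPKM was above 1 in each hind paw library, from 1.18 to 2.52 with a median of 1.60. In DRG it was between 0.0232 and 0.0876 with a median of 0.050. Leaving Mitf aside, Tyrp1 made up 87.8% to 95.2% of the reads on the other 7 genes in a DRG library and 26.4% to 45.2% in a hind paw library. The melanocyte markers Tyr, Tyrp1, Dct, Mlana, Pmel and Slc45a2 all had reads in hind paw. In DRG, Tyrp1, Dct and Pmel had reads in every library, 65 to 140, 2 to 7 and 3 to 7, Slc45a2 had a read in 3 of 6 libraries, and Tyr and Mlana had none.

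**Figure D2:**
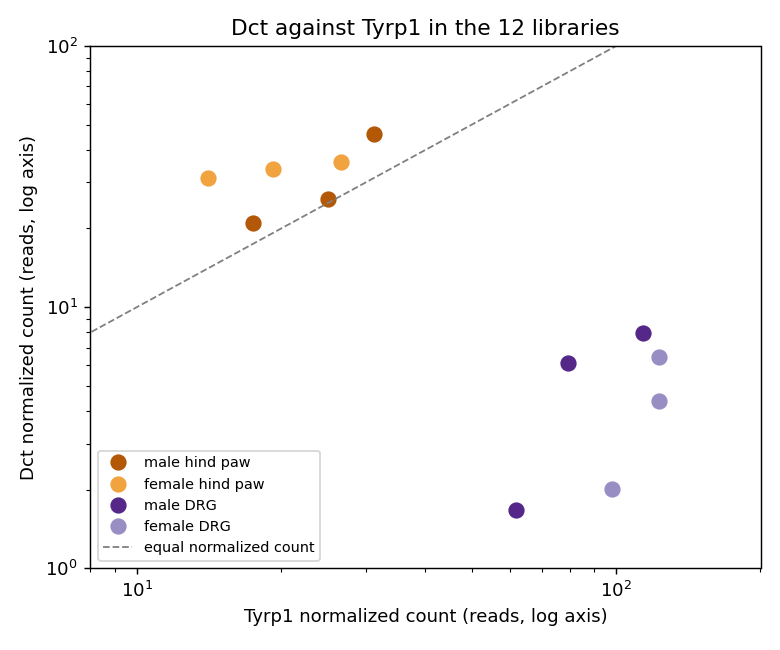
Normalized count of Dct (vertical) against that of Tyrp1 (horizontal) in the 12 libraries, both on log axes; the dashed line marks equal counts and colors mark the 4 groups. The 6 hind paw libraries lie above the line, and the 6 DRG libraries lie below it at high Tyrp1 and low Dct.

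Tyr, the gene of the enzyme that starts the pathway, had 7, 0 and 2 reads in male hind paw and 5, 7 and 5 in female hind paw, 26 in all. None of the 64688861 reads counted on genes in DRG fell on Tyr, and a count of 0 allows up to 3 reads in that total. Floors and intervals cover counting error only. At that floor of 3 counts over the 6 DRG libraries Tyr was at least 8.58-fold higher in hind paw, and the exact 95% lower limit of the ratio, which also takes in the counting error of the hind paw reads, was 6.49. Male hind paw library 2, the shallowest, had no read of Tyr and so overlapped with DRG, and the exact permutation test gave p = 0.0152. Without that library Tyr was at least 9.48-fold higher at the floor, with a lower limit of 7.17, and the exact permutation p was 0.00216, the smallest possible. Without the filter on low counts all 8 genes were tested between tissues by edgeR, and Tyr and Mlana were then called higher in hind paw beside Dct, where 37.0% of 19231 genes were. With Tyrp1, 4 of the 8 genes were called in either direction without the filter, below the 75.1% of all genes.

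Mlana, which encodes a melanosome protein also known as MART-1, had 8 reads over 4 of the 6 hind paw libraries, 4 of them in female hind paw library 1, and none in DRG. It was at least 2.64-fold higher in hind paw at the floor of 3 counts over the DRG libraries, with an exact 95% lower limit of 1.69, and the exact permutation p of 0.0606 did not pass. Without female hind paw library 1 these were 1.59-fold and a lower limit of 0.789, and the mean normalized count in hind paw was 0.723 in place of 1.24. The exact permutation p was 0.0152 without male hind paw library 2 or female hind paw library 2, neither of which had a read of Mlana. Slc45a2 had 7 reads in hind paw and 3 in DRG, a ratio of 2.31 after scaling with a 95% interval of 0.527 to 13.8 (exact conditional binomial). Oca2 had 8 and 5 reads, a ratio of 1.58 with an interval of 0.457 to 6.15. Mc1r had 7 and 6 reads, a ratio of 1.15 with an interval of 0.332 to 4.16. A difference between tissues was not detectable at this depth for these last 3 genes. The lower limits rest on few libraries, and were 0.270 for Slc45a2 without female hind paw library 1, and 0.278 for Oca2 and 0.167 for Mc1r without female hind paw library 2. The lower limit of Oca2 was also 0.285 without male hind paw library 1.

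Mitf had 355, 186 and 336 reads in male hind paw, 301, 239 and 222 in female hind paw, 263, 232 and 191 in male DRG and 265, 276 and 220 in female DRG. After scaling, hind paw ranged from 219.6 to 324 normalized counts with a median of 290.8 and DRG from 217.4 to 283 with a median of 239, and the tissues overlapped. The log2 fold change was 0.16 ± 0.094 (SE) toward hind paw and did not pass (adjusted p = 0.120, edgeR quasi-likelihood test). Mitf passed in the male libraries alone, at 0.36 (adjusted p = 0.0349), and was at -0.015 in the female libraries alone, while the test of the difference between the sexes, the interaction of sex and tissue, did not pass (adjusted p = 0.677, edgeR). Without male hind paw library 2 the log2 fold change was 0.15. Without male DRG library 2 it passed as well, at 0.22 (adjusted p = 0.0338), and over all alternatives the adjusted p ran from 0.0338 to 0.922. The gene model of Mitf has 10 transcripts and 3 RefSeq promoters, and counts per gene do not separate its isoforms.

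Members were located by the GENCODE annotation of mm9. Mitf spans chr6:97757052-97971352 on the plus strand, Mlana chr19:29772411-29782938 (plus), Slc45a2 chr15:10930476-10958988 (plus), Oca2 chr7:63495130-63791887 (plus) and Mc1r chr8:125930982-125934642 (plus, 1 exon). Tyr spans chr7:94574910-94641943 (minus, 6 exon blocks), Tyrp1 chr4:80480027-80497623 (plus, 8 exon blocks) and Dct chr14:118412014-118451468 (minus, 9 exon blocks). Another annotated gene overlaps Mitf (Gm15531, a pseudogene on the other strand) and Mc1r (Gm20388, on the same strand), in neither case exon on exon. The sources do not give the strand setting of the counting.

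The comparison of females with males asked whether the pigment genes differ by sex within each tissue. In hind paw 3 of the 8 genes were tested (Tyrp1, Dct and Mitf) and 0 were called by edgeR, where 0.154% of 14316 genes were. None of the 3 had an unadjusted p below 0.05, and DESeq2 called 0 as well. The 22 genes that edgeR called included Xist and 4 genes of the Y chromosome. With shares this small, here and below, 0 called genes say little about the pigment genes as a group. Mitf was between 292 and 324 normalized counts in male hind paw and between 219.6 and 289 in female hind paw, so the sexes did not overlap, a separation that 14.1% of all genes with a read in hind paw showed and that the other 7 genes did not. The summed RPKM of some cell marker lists separated the sexes in hind paw in the same direction. Hair follicle genes were at 137 to 223 in males and 91.0 to 121 in females. Fibroblast genes were at 1986 to 2831 and 1349 to 1689. Keratinocyte genes were at 20810.1 to 24431 and 14944 to 19429.6, and sensory neuron genes at 17.6 to 20.5 and 9.52 to 16.7. Over the tested genes of these lists the median log2 fold change, female minus male, was -0.49, -0.56, -0.060 and 0.17. The sensory neuron list thus leaned to females by its median, and its sum is led by Tubb3, at a mean of 13.0 RPKM. The keratinocyte sum is led by Krt10, while Lor was higher in every female library. Sums of the other cell marker lists overlapped between the sexes. The part of these lists in the difference of Mitf was not tested. The log2 fold change of Mitf, female minus male, was -0.31 ± 0.14 (SE, adjusted p = 0.526, edgeR), and with 3 libraries on each side 0.1 is the smallest 2-sided p that exact permutation allows. The log2 fold change was -0.32 ± 0.32 for Tyrp1 and 0.085 ± 0.30 for Dct (SE), and neither was called. That of Dct was -0.083 without male hind paw library 2, -0.045 without male hind paw library 3 and 0.49 without male hind paw library 1. That of Tyrp1 was -0.13 without male hind paw library 1 or female hind paw library 3 and -0.58 without female hind paw library 2. Without male hind paw library 2 it was -0.47 for Tyrp1 and -0.26 for Mitf.

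In DRG 2 of the 8 genes were tested (Tyrp1 and Mitf), and 0 were called by edgeR or DESeq2 and 0 had an unadjusted p below 0.05, where 0.0484% of 14456 genes were called. Those 7 called genes included Xist and 4 genes of the Y chromosome. Without the filter on low counts the unadjusted p of Tyrp1 was 0.0444, and it was not called. Tyrp1 averaged 85.0 ± 26.4 normalized counts in males and 115 ± 14.2 in females (SD, n = 3). The difference was 0.46 ± 0.21 on the log2 scale (SE, adjusted p = 0.743, edgeR) and the sexes overlapped. It was 0.26 without male DRG library 1 and 0.73 without male DRG library 3. Male DRG library 1 was the lowest in Tyrp1 and stood apart in skeletal muscle genes. These summed to 807 RPKM there against 24.3 to 199 in the other DRG libraries, and their part was not tested. Mitf differed by 0.071 ± 0.12 (SE), and by 0.0029 to 0.21 when a DRG library was left out. In DRG the sexes did not separate for any of the 8 genes, where 11.1% of all genes with a read there did.

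Whether the sex difference itself differed between hind paw and DRG was tested as an interaction. Of 3 pigment genes, 0 were called, none at an unadjusted p below 0.05 and 0 by DESeq2, where edgeR called 0.0128% of 15666 genes. The interaction, the sex difference in hind paw minus that in DRG, was -0.79 ± 0.40 (SE) on the log2 scale for Tyrp1, -0.37 ± 0.19 for Mitf and 0.28 ± 0.72 for Dct, with adjusted p-values of 0.684, 0.677 and 0.972 by edgeR. Without male hind paw library 2 these interactions were -0.93, -0.33 and 0.11.

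**Figure D3:**
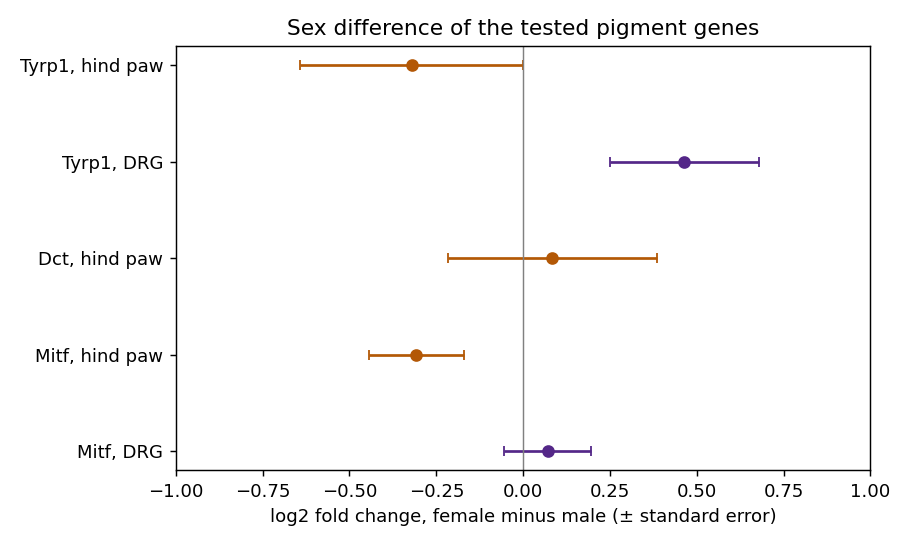
Log2 fold change, female minus male, of the pigment genes that were tested in hind paw and in DRG; points are fitted values and bars are standard errors. None of the 5 values was called, and Mitf in hind paw at -0.31 and Tyrp1 in DRG at 0.46 are the values farthest from 0 in units of their error.

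The genes of the pigment pathway, pigment genes above included, were grouped by role. The counts of each group stand against 42.6% of all tested genes called higher in hind paw and 43.1% higher in DRG. Of 12 genes for the melanosome matrix and its transporters, 7 were tested, with 5 higher in hind paw, 1 higher in DRG and a median log2 fold change of 1.20, against -0.0025 over all tested genes. Among the 7, Pmel reached the filter through hind paw only and Slc24a4 through DRG only, and of the other 5 genes 4 were higher in hind paw, 0 higher in DRG and 1 was not called. Pmel, whose protein forms the fibrils on which melanin is laid down, had 11 to 31 reads in hind paw libraries and 3 to 7 in DRG libraries. It was 3.67-fold higher in hind paw (log2 fold change 1.88 ± 0.26 (SE), adjusted p = 1.86e-05, edgeR), the same direction as Dct, and it was called without the filter as well. Gpnmb, a relative of Pmel that macrophages and osteoclasts also make, was at 9.65 ± 2.99 RPKM in hind paw and 2.34 ± 0.381 in DRG (SD, n = 6). Tpcn2, a channel of melanosomes and lysosomes, was 2.63-fold higher in hind paw, and Slc24a4, an ion exchanger, was 7.55-fold higher in DRG at no more than 0.407 RPKM in any library. Atp7a, the copper transporter that supplies tyrosinase among other enzymes, was the most abundant gene of the list in both tissues and 2.30-fold higher in hind paw.

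For the movement and transfer of melanosomes, all 4 genes were tested, 2 were higher in hind paw and 2 higher in DRG, with a median of 0.28, near the shares over all tested genes (42.6% and 43.1%). Mreg, melanoregulin, showed the largest fitted difference among the tested genes of the 6 pigment lists, which leaves out genes with 0 reads in DRG such as Tyr and Mlana, at 58.6 ± 4.98 RPKM in hind paw and 1.52 ± 0.208 in DRG (SD, n = 6), 38.4-fold (log2 fold change 5.26 ± 0.058 (SE), adjusted p = 8.66e-15, edgeR). Mlph, the linker of the transport complex, was 2.89-fold higher in hind paw. Its partners Rab27a and Myo5a, which carry organelles in neurons and other cells too, were 2.58-fold and 1.95-fold higher in DRG. The 3 parts of that complex thus did not share a direction.

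Of 20 genes for the biogenesis of lysosome-related organelles, all were tested, 7 were higher in hind paw, 11 higher in DRG and 2 were not called, with a median of -0.26. Over all tested genes 42.6% and 43.1% were, so these counts are no result about the list. Rab38 and Rab32, small GTPases that sort melanin enzymes to melanosomes, were 11.9-fold and 2.58-fold higher in hind paw. Rab38 was at 21.7 ± 2.52 RPKM there and 1.82 ± 0.367 in DRG (SD, n = 6). Vps33a and Hps3 were 2.25-fold and 2.11-fold higher in DRG, and Ap3d1, a subunit of the AP-3 adaptor, was the most abundant gene of the list in both tissues.

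Beside Mitf, 4 other transcription factors of melanocytes were measured and tested, 1 higher in hind paw and 3 higher in DRG. With Mitf, the median of the 5 was -0.98. Pax3, an activator of Mitf, was 7.74-fold higher in hind paw (log2 fold change 2.95 ± 0.32 (SE), adjusted p = 1.31e-06, edgeR) at a level of 0.187 ± 0.0487 RPKM (SD, n = 6). It reached the filter through hind paw only, with 4 to 18 reads against 1 to 3 in DRG, and was called without the filter as well. Sox10, which melanocytes share with glia, was at 5.37 ± 1.21 RPKM in hind paw and 61.8 ± 4.25 in DRG (SD, n = 6), 11.5-fold higher in DRG. Zeb2 and Lef1 were 1.97-fold and 2.23-fold higher in DRG.

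Of 11 ligands, receptors and regulators of pigment cells, 8 were tested, 1 was higher in hind paw and 5 higher in DRG, where 42.6% and 43.1% of all tested genes were, with a median of -0.97. Edn1, endothelin 1, was 2.66-fold higher in hind paw, while Ednrb, an endothelin receptor, was 2.24-fold higher in DRG. Corin, a protease that acts on agouti signaling, was 9.45-fold higher in DRG at no more than 0.422 RPKM, and reached the filter through DRG only. Atrn, attractin, was 2.14-fold higher in DRG, and Mgrn1, a ubiquitin ligase of the same pathway, was the most abundant gene of the list in hind paw and was not called. Kit, the receptor on which melanocyte survival depends, and its ligand Kitl were 1.95-fold and 1.96-fold higher in DRG. Atp7a, Ap3d1, Mgrn1, Kit and Kitl were named after their values were seen.

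**Figure D4:**
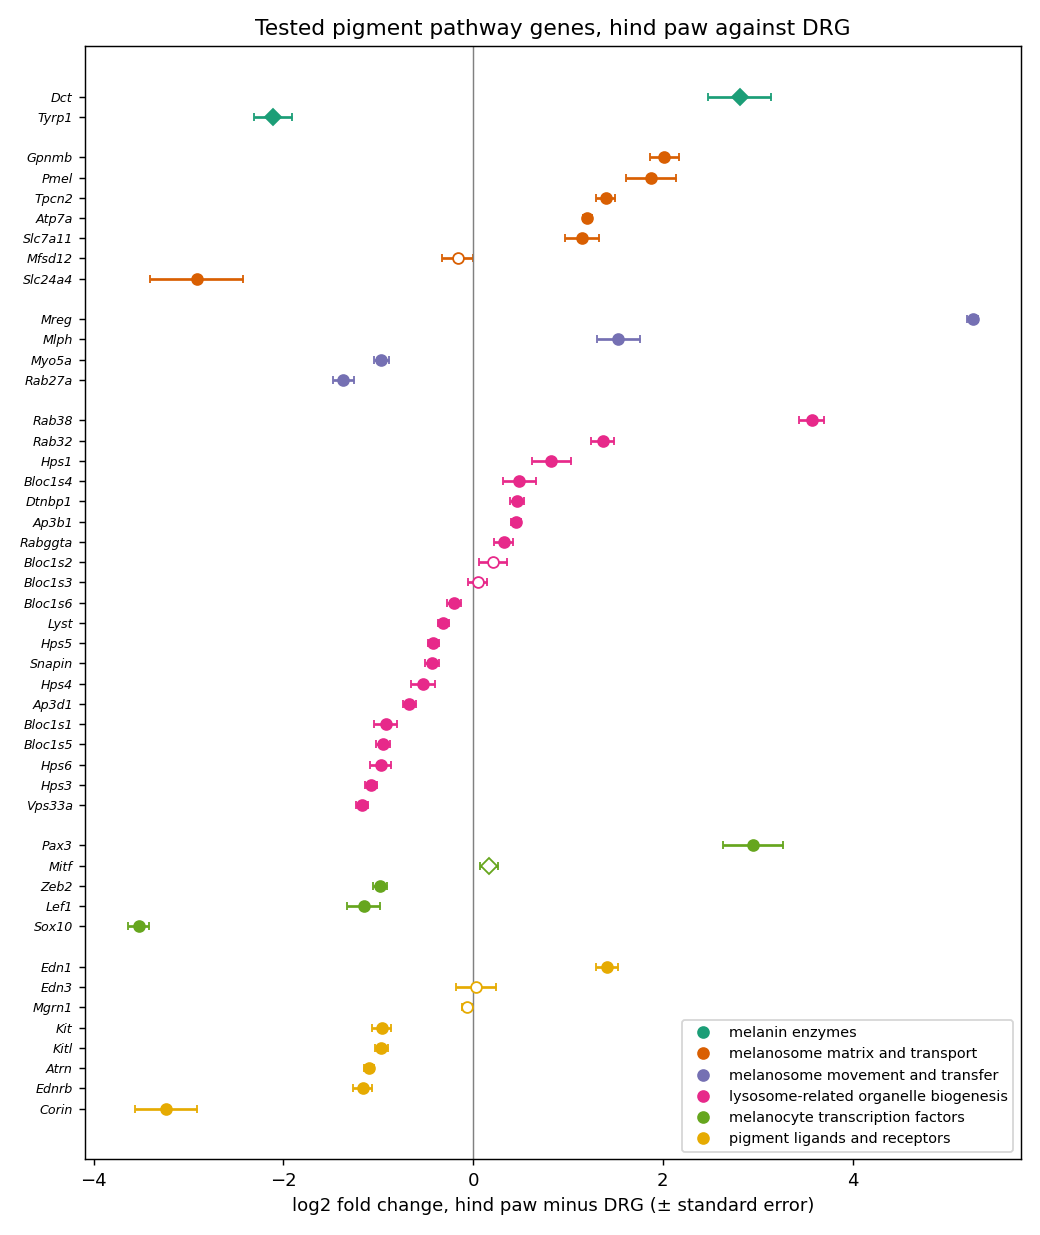
Log2 fold change, hind paw minus DRG, with its standard error, for each tested gene of the 6 pigment lists; diamonds are members of the 8 pigment genes, filled symbols were called at an adjusted p below 0.05 and open symbols were not. Mreg at 5.26 and Rab38 at 3.57 lie farthest toward hind paw, and Sox10 at -3.53 and Corin at -3.24 farthest toward DRG.

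Lists of other cells that the samples could hold were measured beside these values. Their counts too stand against the 42.6% and 43.1% of all tested genes called higher in hind paw and in DRG, and genes found almost only in 1 tissue reached the filter through it, such as 8 of the 11 hair follicle genes through hind paw and 6 of the 11 sensory neuron genes through DRG. In glia, 9 of 10 genes were higher in DRG and Erbb3, named after its value was seen, was not called. The list summed to between 181 and 221 RPKM in hind paw and between 5642 and 7710 in DRG, its most abundant gene in hind paw was Pmp22, and Fabp7 was at 0.104 ± 0.132 RPKM in hind paw against 121 ± 18.2 in DRG. All 11 sensory neuron genes were higher in DRG, where Tubb3 was the most abundant. Glia and neuron genes thus lay in the direction of Tyrp1 and Sox10, and their part in those differences was not tested. Of 6 meningeal genes, 3 were higher in hind paw and 3 higher in DRG, near the shares over all tested genes, with Slc22a6 at 0 in every hind paw library.

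All 9 keratinocyte genes were higher in hind paw, with Krt10 the most abundant, as were all 6 fibroblast genes, led by Dcn, and all 10 muscle genes, led by Acta1. Of 11 hair follicle genes, 10 were higher in hind paw, led by Tchh, and Shh was 45.4-fold higher in DRG. All 4 tested mast cell genes were higher in hind paw, led by Mcpt4, and all 4 tested immune genes, led by Csf1r. Of 3 tested osteoclast genes 2 were higher in hind paw, led by Ctsk, and Oscar was higher in DRG. Of 6 adipocyte genes 3 were higher in hind paw, led by Fabp4, and 3 were not called, again near the share over all tested genes. Female DRG library 1 stood apart in this list, with a sum of 290.6 RPKM against 41.2 to 72.7 in the other 5 DRG libraries and 101 to 159 in hind paw. Male DRG library 1 stood apart in the muscle list, with a sum of 807 RPKM against 24.3 to 199 in the other 5. It was also the lowest DRG library in Tyrp1 and in Dct. Keratinocyte, fibroblast, muscle, mast cell and immune genes, and 10 of the 11 hair follicle genes, thus lay in the direction of Dct, Pmel and Mreg, and their part in those differences was not tested.

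**Figure D5:**
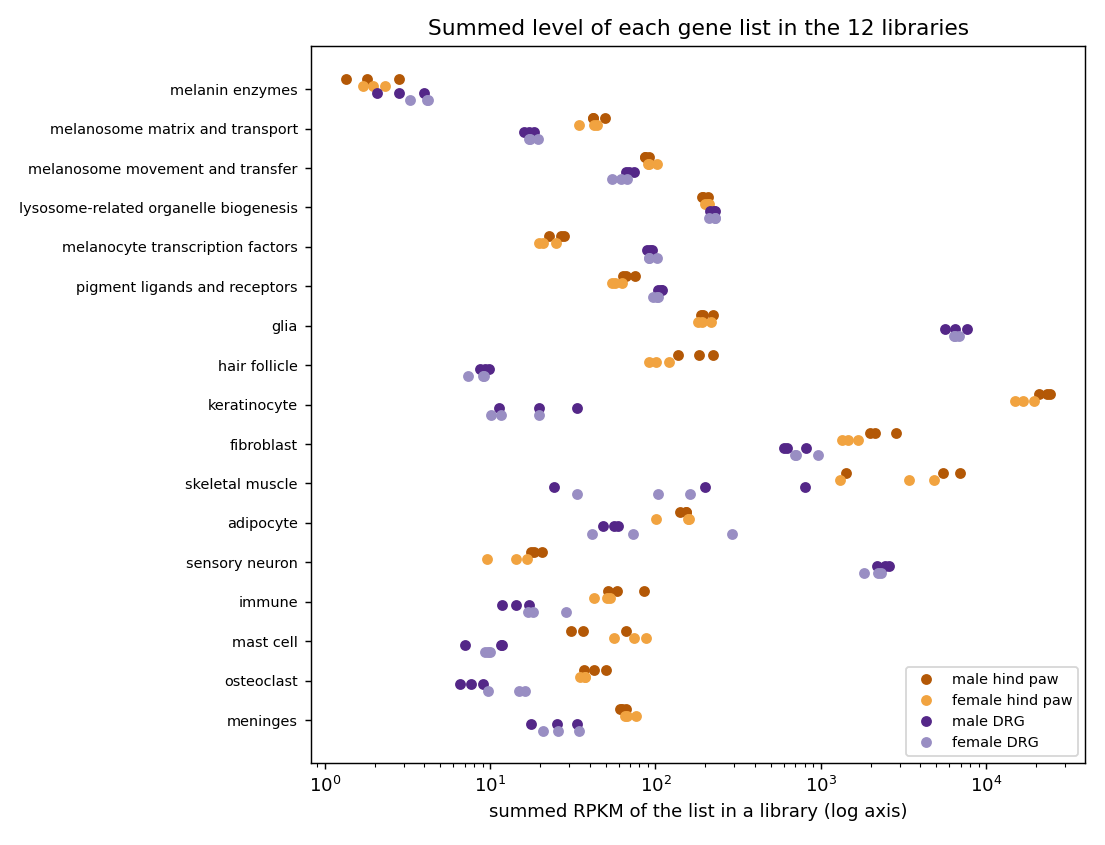
Summed RPKM of each gene list (horizontal, log axis) in each of the 12 libraries, colored by group. The melanin enzymes sum to between 1.34 and 2.81 RPKM in hind paw and between 2.07 and 4.22 in DRG, far below every list of cell type markers in the tissue where that list is highest.

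Within hind paw the low counts varied between libraries. Dct and Tyrp1 were both highest in male hind paw library 1 and next highest in female hind paw library 2, and Tyr was highest in the same pair in the reverse order. Male hind paw library 2 was lowest for Dct and Tyr, and female hind paw library 3 was lowest for Tyrp1. Mitf had another order, highest in male hind paw library 2 and lowest in female hind paw library 2. The skeletal muscle genes summed to 1414 and 1301 RPKM in male library 1 and female library 2 and to between 3396 and 6991 RPKM in the other 4 hind paw libraries, although the methods say that the biopsies leave muscle untouched, and the part of these genes in the order was not tested. The hair follicle genes summed to between 137 and 223 RPKM in male and between 91.0 and 121 RPKM in female hind paw, with Tchh between 1.16 and 108 RPKM. The 6 hind paw libraries had the same order in the hair follicle sum, in Tchh and in Mitf, while Dct and Tyrp1 had other orders. Tchh is the most abundant gene of that sum by its mean, so the orders of Tchh and of the sum are not separate. The match with Mitf was seen after the values were known, and how many genes share this order was not counted. It places every male library above every female one. Of all genes with a read in hind paw, 14.1% separated the sexes in either direction. Foxn1 and Dlx3 of the hair follicle list were highest in male hind paw library 1 and next in female hind paw library 2, like Dct and Tyrp1. The rest of that list went elsewhere. Hoxc13, Dsg4, Tchh, Padi3, S100a3, Gprc5d, Msx2 and Shh were highest in male hind paw library 2. Lhx2 was highest in male hind paw library 3. The part of hair follicle genes in the levels of Mitf, Dct and Tyrp1 was not tested.

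The 10 genes whose level over the 6 hind paw libraries was most like the mean profile of Tyrp1, Dct and Mitf included Mcm5, Nccrp1, Slc35b4, Slc3a2, Mavs, Laptm5, Ap2a1, Rai1 and Entpd2. Their Pearson r was between 0.987 and 0.999 over 6 libraries, among 13332 genes compared, and these libraries differ in sex and punch content. In all, 292 genes had an r of at least 0.9. The profile averages Mitf with Dct and Tyrp1, whose orders differ, so a gene like the profile need not follow any 1 of them. When a hind paw library was left out, between 3 and 5 of these 10 genes were again among the 10 most alike, so the list rests on few libraries.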

How the data were processed

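The authors aligned the reads with TopHat2 to mm9 and counted them on genes with HTSeq, and the deposited values are raw whole-number counts per gene without normalization. Tool versions, annotation and strand setting are not given in the sources used here. Per the labels, rRNA was depleted, libraries were stranded and reads were 100 bases long in pairs, whereas the methods name oligo-dT primers and shorter single reads. The 5 categories of reads not counted on a gene, 71.9% to 86.4% of a library's listed reads, were left out of library sizes and tests.

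Counts were scaled by RLE factors and tested in R 4.3.3 by quasi-likelihood (edgeR 4.0.16), with Benjamini-Hochberg adjustment over all tested genes, those with at least 10 reads in at least 3 libraries of the fit. Tissues were compared as the mean of both sexes over 12 libraries, and sexes within 6. RPKM used the union of exons of the GENCODE mm9 models and the scaled library size. The procedure was tested on simulated data. Libraries of a group differed by more than counting noise, and none were identical. Alternatives were DESeq2 1.42.0, TMM factors, no filter, a replicate block, a joint fit, each sex alone, other RPKM definitions and leaving out each library.

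The members and gene lists were chosen with earlier results of these data known. Genes named were the 8 members, up to 4 genes per list with the largest called difference between tissues, the most abundant gene of each cell type list, and the 10 genes most like the members in hind paw. Outside this rule, Atp7a, Ap3d1, Mgrn1, Kit, Kitl, Erbb3 and Lor were named after their values were seen. So were Dlx3 and the hair follicle genes named only for their highest hind paw library. Of 147 listed genes, 144 were in the files.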

Additional observations from a re-analysis of the deposited data

How the results depend on the processing

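Dct and Tyrp1 kept their direction and their call between tissues under all 18 alternatives, with log2 fold changes of 2.55 to 3.04 and -2.50 to -1.71. Without a filter on low counts, 4 of the 8 pigment genes were called between tissues, since Tyr and Mlana were then tested, against 75.1% of all genes. Mitf was at -0.015 in female libraries only, at 0.36 in male libraries only, where it was called, and between 0.10 and 0.22 when a library was left out. No pigment gene was called between the sexes or in the interaction under any alternative run. The sex difference of Dct in hind paw, 0.085, was -0.083 without male library 2 and -0.045 without male library 3, and between -0.083 and 0.49 over the libraries left out. Tyrp1 lay between -0.58 and -0.13 in hind paw and between 0.26 and 0.73 in DRG. The interaction of Dct, 0.28, lay between -0.18 and 0.79.

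Counts of called genes over the whole table moved more. The 22 genes called between sexes in hind paw became 208 with DESeq2, 40 without a filter and 88 with all 12 libraries in 1 fit, and between 1 and 8 when any of the 6 libraries was left out. The 7 in DRG became 15 with DESeq2 and between 1 and 6 without 1 library, with 1 when any male DRG library was left out. The 2 genes of the interaction became 36 with DESeq2 and 4 without a filter, and between 0 and 4 without 1 library. The cause was not tested. With a replicate block, 8 genes were called between sexes in hind paw and 1 in the interaction, and no call of a pigment gene changed. Same-numbered libraries of both tissues and sexes correlated between -0.347 and 0.249 in their deviations from the group means, so the numbers were not taken as pairs, and not every library correlated best with its own number. RPKM from the longest transcript moved Mitf to 5.16 in hind paw and 4.58 in DRG. With TMM factors, 10 of the 10 genes most like the members were the same.

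Depth limits Tyr, Mlana, Slc45a2, Oca2 and Mc1r, which no library counted at 10 reads or more. Sex differences of these genes, and of Dct in DRG, rest on too few reads to be judged.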
